A study of Bos grunniens x Bos taurus and Bos grunniens with 6 samples.

Results

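Signalling by transforming growth factor beta (TGF-beta) and bone morphogenetic proteins (BMP) was examined through 54 genes among the 18918 of the deposited testis table. A gene was included when its symbol named a TGF-beta, BMP, GDF, nodal or lefty ligand, a TGFBR, BMPR or ACVR receptor, a SMAD, a SMURF ubiquitin ligase, an antagonist of the noggin, gremlin, chordin or chordin-like names or a latent TGF-beta binding protein. The 54 genes carried 51 different symbols, since LEFTY2, LTBP2 and SMURF1 each stood on more than 1 gene. Testis RNA was compared between 3 male cattle-yak, which were F1 offspring of a Jersey bull and a Gannan yak cow, and 3 male Gannan yak. All 6 animals were 4 years old, and each gave 1 library. The cattle-yak came from Xiahe County and the yak from Linxia County, so county and group cannot be told apart. The labels give castration for the testes, whereas the study's methods give euthanasia for the yak, and the mode of collection cannot be told apart from the group either. Reads of both groups were mapped to a yak genome, although the hybrids carry a cattle allele of each autosomal gene, and the part of this in the results was not tested.

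In this pathway a dimeric ligand brings together type II and type I receptor kinases, and the type I kinase phosphorylates receptor SMADs, which join SMAD4 and enter the nucleus. TGF-beta ligands are secreted in a latent form tethered to the matrix by latent TGF-beta binding proteins, while SMAD6, SMAD7 and the SMURF ligases damp the signal. In the testis the pathway acts in Sertoli, Leydig and germ cells, and activins, inhibins and anti-Müllerian hormone belong to the same superfamily.

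Levels are given as FPKM (fragments per kilobase of gene model, scaled to the depth of the library), in the order of replicates 1, 2 and 3 of each group. The values rested on 11834987, 11175100 and 11600013 fragments on genes in cattle-yak and on 13136129, 13104964 and 12991641 in yak, and a single fragment per kilobase was worth 0.0761 to 0.0895 FPKM, depending on the library. Genes that averaged at least 0.5 FPKM over the 6 libraries were tested with limma on log2 (FPKM + 1), two-sided. Calls required a log2 fold change, cattle-yak minus yak, beyond 1 in either direction together with a p under 0.05 after Benjamini-Hochberg adjustment. Low FPKM values give fold changes that are too small on this scale.

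The comparison asked how the transcripts of this pathway differ between the testis of the hybrid, whose males are sterile, and that of yak. Of the 54 genes, 38 reached the minimum level, of which 16 were called higher in cattle-yak, 4 were called lower and 18 were not called. Among all 15042 genes tested, 33.4% were called higher and 20.8% lower, beside 42.1% and 10.5% of the 38. The median log2 fold change was 0.77 over the 38 genes and 0.51 over all genes tested. In 24 of the 38 every cattle-yak library lay above every yak library, as in 53.9% of all genes tested, and in 7 every cattle-yak library lay below, as in 30.2%. GDF6, BMP8A and the tested LEFTY2 gene had a cattle-yak mean under the minimum and were tested only through their level in yak. Counts over the 38 genes therefore describe those genes and not all 54. The genes called higher were TGFB1, BMP2, Bmp1, LTBP1, LTBP4, TGFBR1, ACVRL1, all 4 type II receptors, SMAD1, SMAD5, Smad9, SMAD4 and SMAD7. Those called lower were BMP7, GDF6, GDF9 and SMURF1.

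The calls depend on how libraries are set against each other. Scaling by the median of ratios between libraries lowered the median of all genes by 0.50 on the log2 scale, to 0.01, and centring each library on the Sertoli cell markers lowered it to -1.81. Among all genes the split of higher against lower calls was 5023 to 3136 as deposited, 2655 to 4173 with median-of-ratios scaling and 27 to 11565 with Sertoli centring. Among the 38 tested members it was 16 to 4, 5 to 6 and 0 to 27 in the same order. The share of members called higher was above that of all genes as deposited and below it with median-of-ratios scaling. Their share called lower was below that of all genes in both. LTBP4, Bmp1, SMAD7, ACVR2A and TGFBR1 were called higher, and BMP7, GDF6, GDF9 and SMURF1 lower, both as deposited and with median-of-ratios scaling, which also called BMP8A and Smad3 lower. With DESeq and the same thresholds, the study reported more genes downregulated than upregulated in cattle-yak. The deposited scale gave the opposite balance, and median-of-ratios scaling the same. Directions below are those of the deposited scale. Sertoli centring moves every log2 fold change by the same -2.33 and so leaves their order as it was.

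**Figure D1:**
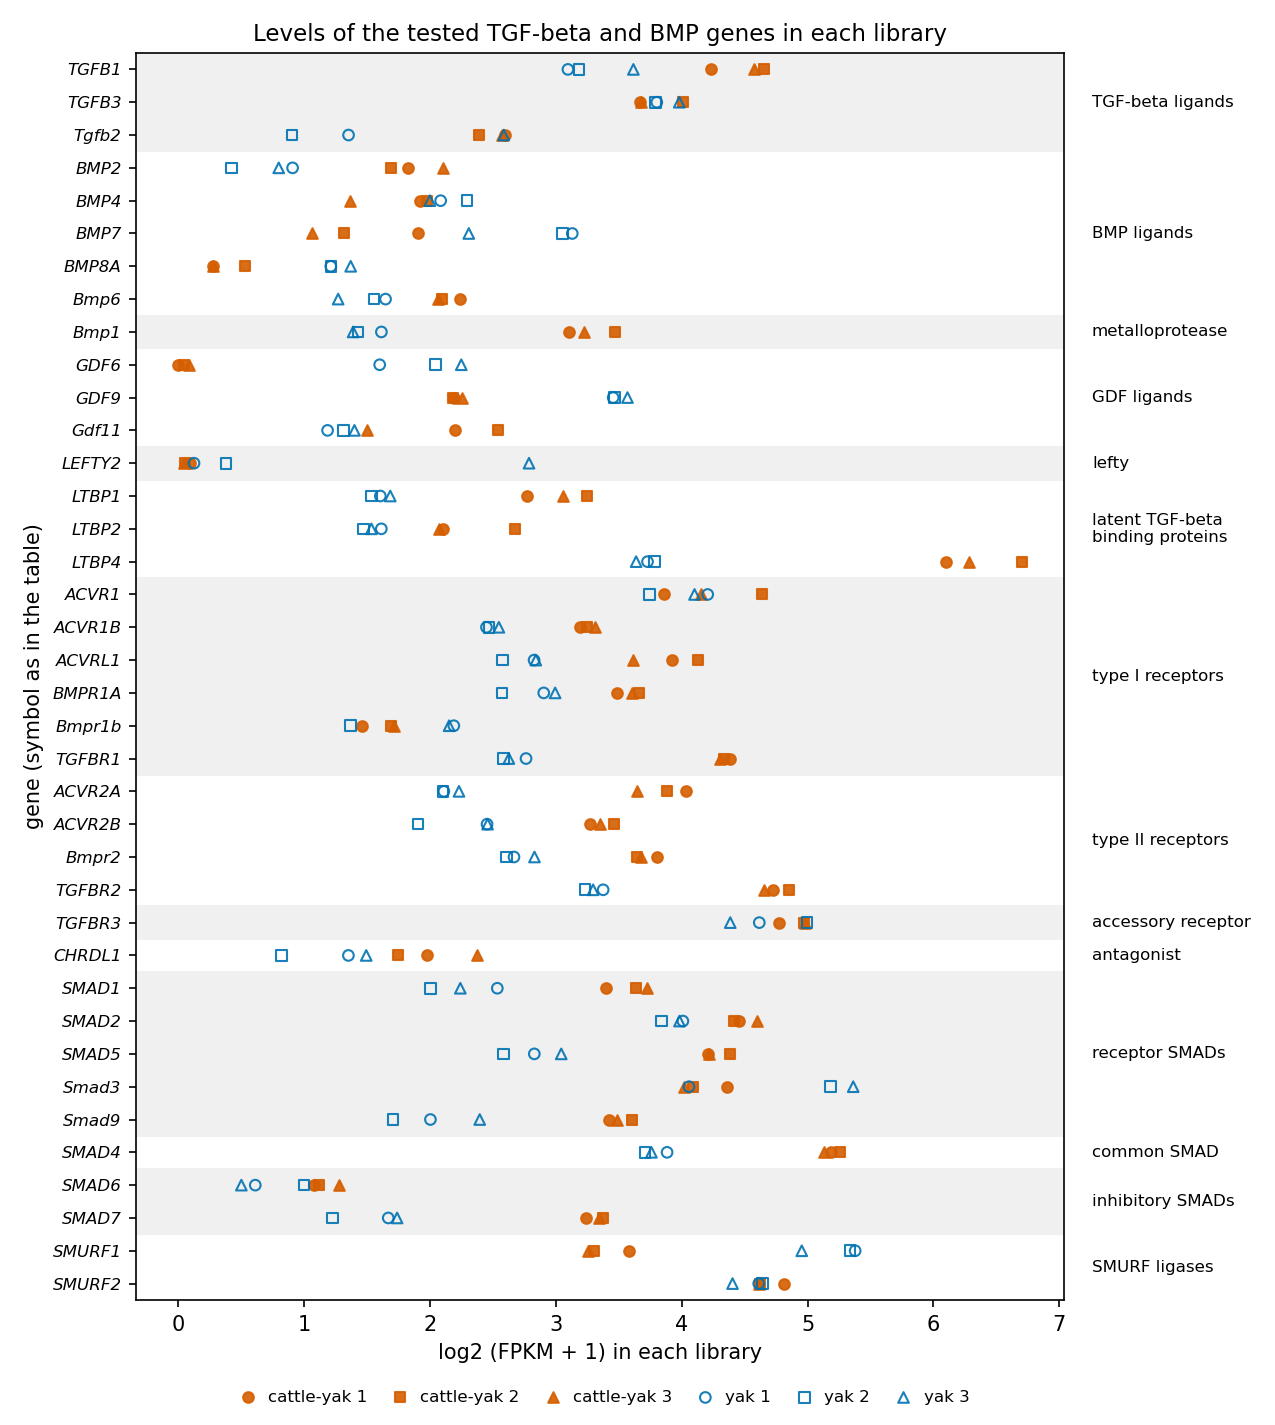
Levels of the 38 tested members on log2 (FPKM + 1), with 1 row per gene and 1 point per library, filled for cattle-yak and open for yak, and the role of each gene at the right. The filled LTBP4 points lie farthest right, the open points of SMURF1, GDF6 and GDF9 lie right of the filled ones, and a single yak library stands apart for LEFTY2.

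Among the TGF-beta ligands TGFB1 was called higher in cattle-yak, and TGFB3 and Tgfb2 were not called. TGFB1, which is secreted by many cell types and acts on matrix production and immune cells, stood at 17.8, 24.1 and 22.9 FPKM in cattle-yak and at 7.55, 8.09 and 11.3 FPKM in yak. Every cattle-yak library lay above every yak library, with a log2 fold change of 1.19 (SE 0.18, adjusted p = 3.1e-04). With median-of-ratios scaling this difference was 0.61 and was not called. TGFB3 stood at 11.7, 15.1 and 11.8 FPKM in cattle-yak and at 12.9, 12.9 and 14.8 FPKM in yak. These ranges overlapped, and the log2 fold change was -0.07 (95% interval -0.39 to 0.24). Tgfb2 stood at 5.05, 4.25 and 4.95 FPKM in cattle-yak and at 1.55, 0.869 and 5.005 FPKM in yak. Yak replicate 3 lay at the level of the cattle-yak and the other 2 yak libraries below it, and the difference of 0.91 (adjusted p = 0.0547) was not called, while without that library it was 1.39 and was called higher.

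Because all 3 ligands come from the same library, their proportions do not depend on the scaling between libraries. TGFB1 made up 51.5%, 55.5% and 57.7% of the summed FPKM of the 3 ligands in cattle-yak and 34.2%, 37.1% and 36.3% in yak. TGFB3 made up 33.9%, 34.7% and 29.8% in cattle-yak and 58.7%, 59.0% and 47.6% in yak. TGFB1 was therefore the most abundant of the 3 in each cattle-yak library and TGFB3 in each yak library. The groups did not overlap in either proportion. Proportions of this kind were chosen after the values were seen and carry no test.

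The BMP ligands differed in direction. Of 7 BMP ligand genes 5 were tested, and BMP2 was called higher, BMP7 lower and BMP4, Bmp6 and BMP8A were not called. BMP7, the most abundant of them in yak but not in cattle-yak, stood at 2.74, 1.48 and 1.09 FPKM in cattle-yak and at 7.76, 7.29 and 3.95 FPKM in yak. All 3 yak libraries lay above the cattle-yak, with yak replicate 3 the nearest to them, and the mean level was 3.58 times as high in yak (log2 fold change -1.40, SE 0.29, adjusted p = 1.9e-03). BMP2 stood at 2.54, 2.23 and 3.31 FPKM in cattle-yak and at 0.876, 0.342 and 0.738 FPKM in yak. The groups did not overlap, and its log2 fold change was 1.16 (SE 0.19, adjusted p = 5.6e-04) as deposited but 0.82, without a call, with median-of-ratios scaling. The yak values of BMP2 rested on 18, 7 and 15 fragments.

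BMP8A and Bmp6 passed the adjusted p but not the fold threshold. BMP8A, a ligand of germ cells in the mouse, had 3, 6 and 3 fragments in cattle-yak and 21, 21 and 25 in yak, and reached the minimum level only through yak. Its log2 fold change was -0.90 (adjusted p = 7.4e-04), and it was called lower with median-of-ratios scaling (-1.15), TPM (-1.17), a pseudocount of 0.1 (-2.00) and voom on the recovered fragments (-2.23). Per depth, the summed yak fragments were 4.93 times those of cattle-yak, with a 95% exact interval of 2.64 to 10.01 that covers counting error only. Bmp6 ranged from 3.19 to 3.72 FPKM in cattle-yak and from 1.41 to 2.13 FPKM in yak, with a log2 fold change of 0.64. BMP4 was lower in every cattle-yak library than in any yak library, at 1.57 to 2.94 against 2.997 to 3.90 FPKM, without passing the test (adjusted p = 0.117). BMP3 reached at most 0.230 FPKM and was not tested. BMP5, also under the minimum, stood at 1.11 FPKM in yak replicate 3, from 21 fragments, and between 0.0592 and 0.232 FPKM in the other 5 libraries.

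Bmp1 carries a BMP name but encodes a metalloprotease that processes procollagens and the BMP antagonist chordin. Its level was 7.62, 10.1 and 8.32 FPKM in cattle-yak and 2.06, 1.69 and 1.62 FPKM in yak. The lowest cattle-yak library was far above the highest yak library, and the log2 fold change was 1.79 (SE 0.16, adjusted p = 1.3e-05).

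Of 9 GDF genes 3 were tested, and GDF9 and GDF6 were called lower in cattle-yak, GDF6 having reached the minimum level only through yak. GDF9, known as an oocyte factor and also transcribed in male germ cells, stood at 3.57, 3.54 and 3.76 FPKM in cattle-yak and at 9.97, 10.05 and 10.9 FPKM in yak. Libraries of a group were close together and the groups lay apart, with a log2 fold change of -1.29 (SE 0.12, adjusted p = 2.2e-05). GDF6, a ligand of skeletal and eye development, had 0, 1 and 2 fragments in cattle-yak and 75, 115 and 137 fragments in yak. In FPKM it was listed at 0, 0.0318 and 0.0613 in cattle-yak and at 2.03, 3.12 and 3.75 in yak. The cattle-yak libraries were thus at 2 fragments or fewer, and every yak library was far above them. Per depth the yak fragments were 96.2 times those of cattle-yak (95% exact interval 32.6 to 469, counting error only), while the fitted log2 fold change was -1.92 (adjusted p = 3.1e-05). Gdf11 stood at 3.60, 4.82 and 1.83 FPKM in cattle-yak and at 1.28, 1.49 and 1.64 FPKM in yak. Cattle-yak replicate 3 lay close to the yak, and the difference of 0.78 was under the fold threshold, while without that library it was 1.07 and was called higher. The other 6 GDF genes, GDF2, GDF3, Gdf5, GDF7, GDF10 and GDF15, reached at most 0.512 FPKM in any library.

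LEFTY2 encodes an inhibitor of nodal signalling and stood on 2 genes, whose reads may be shared and are uncertain. The tested one had 2, 1 and 1 fragments in cattle-yak and 3, 10 and 194 fragments in yak. Its mean over all libraries was the higher of the pair only through yak replicate 3. Its level of 5.90 FPKM in yak replicate 3 compared with 0.0902 and 0.301 FPKM in yak replicates 1 and 2. This difference rested on 1 animal and did not pass the test (log2 fold change -1.03, adjusted p = 0.151), and without that animal it was -0.19. The second LEFTY2 gene stood at 0.770, 0.326 and 0.471 FPKM in cattle-yak and at 0.208, 0 and 0.351 FPKM in yak, so that its groups overlapped. It lay above the tested one in every cattle-yak library and in yak replicate 1. NODAL was listed above 0 only in cattle-yak replicate 2, at 0.0860 FPKM.

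Among the latent TGF-beta binding proteins LTBP1 and LTBP4 were called higher. LTBP4, a matrix protein that holds latent TGF-beta and takes part in elastic fibre assembly, stood at 67.6, 103.2 and 77.1 FPKM in cattle-yak and at 12.3, 12.8 and 11.4 FPKM in yak. All cattle-yak libraries lay above all yak libraries, and its mean was 6.80 times as high (log2 fold change 2.65, SE 0.16, adjusted p = 1.6e-06). It was the most abundant of the 54 genes in cattle-yak and ranked 9 in yak. LTBP1 ranged from 5.82 to 8.48 FPKM in cattle-yak and from 1.90 to 2.21 FPKM in yak (log2 fold change 1.41, adjusted p = 6.6e-05), and with median-of-ratios scaling it fell short of the threshold at 0.93. LTBP2 stood on 2 genes. The first was at 3.29, 5.38 and 3.21 FPKM in cattle-yak and at 2.06, 1.77 and 1.90 FPKM in yak, and its log2 fold change of 0.74 was not called. The second was listed at 0 in 5 libraries and at 0.167 FPKM in cattle-yak replicate 3. Of the summed FPKM of LTBP1, LTBP2 and LTBP4, LTBP4 made up 88.0% to 88.2% in the cattle-yak libraries and 73.6% to 77.6% in those of yak, without overlap.

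Markers of somatic cells and of late germ cells differed between the same libraries. The leading gene of a list is named by group mean. All 13 Sertoli marker genes, from 11 symbols, were called higher in cattle-yak. Their summed FPKM was 2145, 2027 and 2217 in cattle-yak and 495.2, 455.9 and 471.6 in yak, with CLU the most abundant. All 8 Leydig genes, from 6 symbols, were called higher, led by INSL3, with sums of 12471, 11911 and 10468 FPKM against 4889, 3352 and 3541 FPKM. For 1 of the 3 CYP17A1 genes among them the groups overlapped, and it lost the call in 4 of the 6 fits without a library. All 6 myoid genes were called higher too, led by Acta2, with sums of 584.3, 781.8 and 594.9 FPKM against 146.8, 118.6 and 123.6 FPKM. All 7 stromal genes, led by Col3a1, were called higher with sums of 352.0, 439.6 and 373.9 FPKM against 66.4, 64.9 and 57.8 FPKM. With median-of-ratios scaling 11 of the 13 Sertoli, 6 of the 8 Leydig, 6 of the 6 myoid and 7 of the 7 stromal genes were called higher, and SHBG (0.998), a second and less abundant CLU gene (0.92), INSL3 (0.94) and the CYP17A1 gene with overlap (0.57) were not.

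Spermatid markers went the other way. Of 8 round spermatid genes 7 were called lower, with sums of 45.7, 27.9 and 9.35 FPKM in cattle-yak against 2189, 2058 and 2690 FPKM in yak, and CRISP2 was the most abundant. SPACA3 was listed at 0 in cattle-yak replicate 2, and 4 of the 8 were tested only through their level in yak. All 7 elongating spermatid genes were called lower, led by TNP1 in yak and by Odf2 in cattle-yak, with sums of 184.8, 95.9 and 57.5 FPKM against 11339, 9879 and 11886 FPKM. Of 8 spermatogonial genes 7 were called higher, led by DMRT1, with sums of 735.6, 833.2 and 939.3 FPKM against 177.9, 194.4 and 245.6 FPKM. Of 8 spermatocyte genes SYCP3 was called higher, 2 were called lower and 5 were not called, and SYCP3 was the most abundant in cattle-yak and Piwil1 in yak. Their sums were 346.0, 211.4 and 313.5 FPKM in cattle-yak and 473.8, 448.8 and 489.4 FPKM in yak. The call of SYCP3 was lost without cattle-yak replicate 3 (0.91), without yak replicate 1 (0.998) and with median-of-ratios scaling (0.49), which called 0 spermatocyte genes higher and 3 lower. That scaling called 6 spermatogonial genes higher and left the 14 calls of spermatid genes as they were.

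Of 8 endothelial genes 5 were called higher and VWF lower, with CLDN5 the most abundant in cattle-yak and VWF in yak, and sums of 64.5, 72.02 and 49.3 FPKM against 40.4, 34.6 and 42.2 FPKM. Of 7 macrophage genes 4 were called higher and AIF1 and CD14 lower, and the sums overlapped at 120.1, 161.0 and 168.2 FPKM against 130.6, 141.4 and 108.5 FPKM, with C1QB the most abundant in cattle-yak and AIF1 in yak. With median-of-ratios scaling 0 endothelial and 2 macrophage genes were called higher, while VWF, AIF1 and CD14 were still called lower. Without cattle-yak replicate 2 the endothelial gene TIE1 (0.97) and the macrophage gene CD68 (0.84) lost the call. The macrophage gene CSF1R gained a call without cattle-yak replicate 3 (1.002) or yak replicate 2 (1.09). Erythrocyte genes summed to 0.667 FPKM or less in every library, HBA being the more abundant, and ALAS2 was listed at 0 in 5 of them. Between the groups each sum except those of macrophage (p = 0.3) and erythrocyte genes (p = 0.6) gave p = 0.1 in the exact permutation test, two-sided, the smallest that 3 against 3 allows, and 0.122 after Benjamini-Hochberg adjustment over 11 lists. In RNA of whole tissue alone, fewer cells of a type and less RNA per cell cannot be told apart. From sections, the study reported that cattle-yak tubules lacked round spermatids and sperm. It also reported fewer spermatogonia and spermatocytes there than in yak. The part of these markers in the differences of the TGF-beta and BMP genes was not tested.

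**Figure D2:**
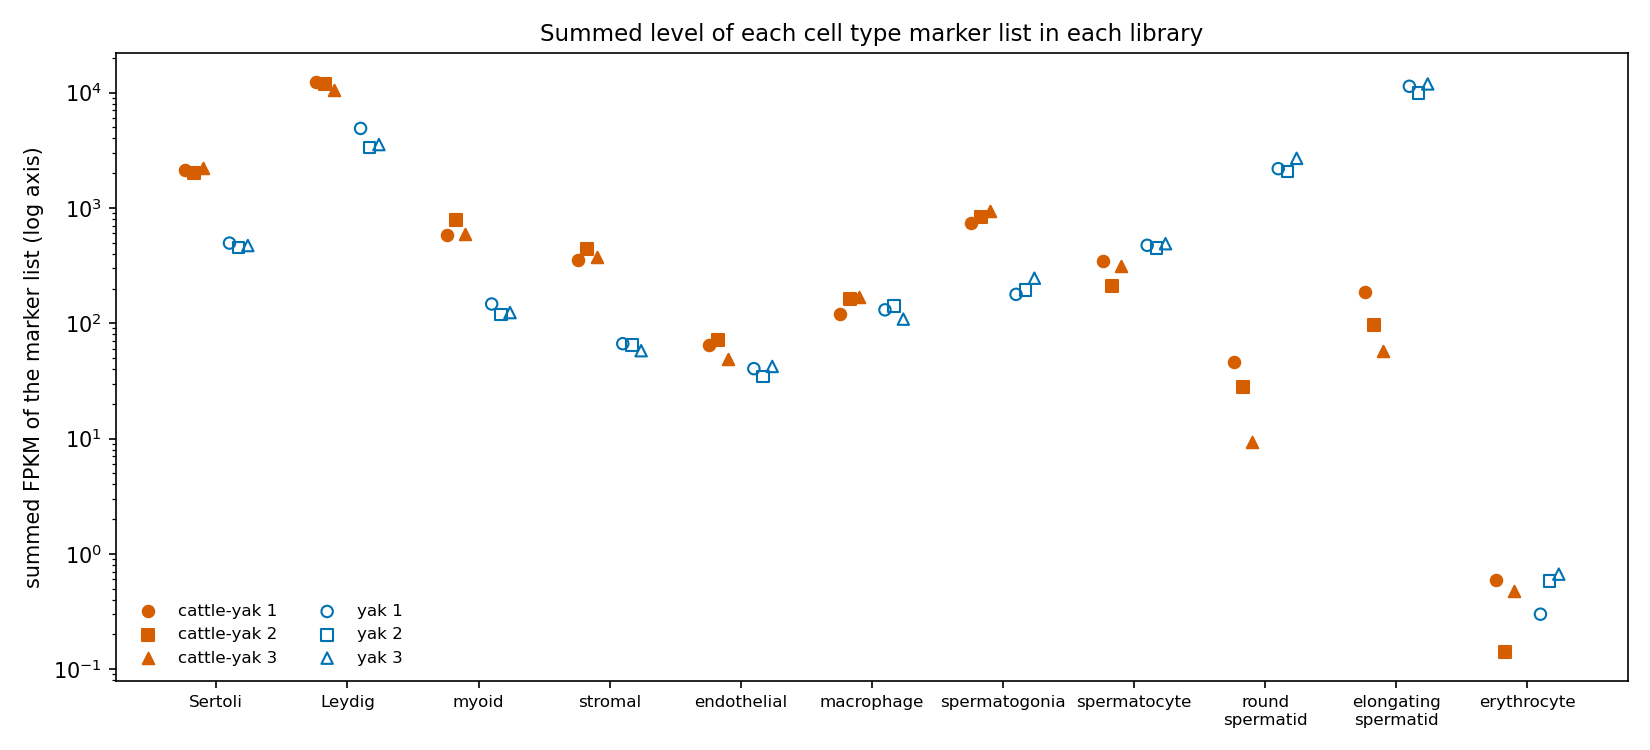
Summed FPKM of 11 cell type marker lists on a log axis, 1 point per library, filled for cattle-yak and open for yak. The sums of Sertoli, Leydig, myoid, stromal and spermatogonial genes lie higher in cattle-yak, those of round and elongating spermatid genes lie far higher in yak, and those of macrophage and erythrocyte genes overlap.

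Of the 4 members that are extracellular antagonists, which bind BMPs before they reach a receptor, 3 were under the minimum level. CHRDL1, a chordin-like protein and the one tested, stood at 2.94, 2.36 and 4.17 FPKM in cattle-yak and at 1.55, 0.762 and 1.82 FPKM in yak. The groups did not overlap, and the log2 fold change of 0.81 (SE 0.24, adjusted p = 0.012) stayed under the fold threshold. CHRDL1 was called higher with a pseudocount of 0.1 (1.18) and with voom on the recovered fragments (1.24). Chrd, the gene of chordin, had 17, 24 and 29 fragments in cattle-yak and 5, 9 and 3 in yak, at 0.0524 to 0.568 FPKM, and was not tested. CHRDL2 stood at 1.42 FPKM in yak replicate 1 and between 0.164 and 0.462 FPKM in the other libraries. Nog, the gene of noggin, had at most 2 fragments in a library.

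Of 7 type I receptor genes 6 were tested, of which TGFBR1 and ACVRL1 were called higher and none lower. TGFBR1, the kinase that transmits TGF-beta signals, stood at 19.8, 19.2 and 18.7 FPKM in cattle-yak and at 5.79, 5.003 and 5.17 FPKM in yak. The spread within a group was small beside the distance between groups, and the log2 fold change was 1.68 (SE 0.12, adjusted p = 3.7e-06). ACVR1, a BMP type I receptor and the most abundant of the role in yak, stood at 13.5, 23.9 and 16.8 FPKM in cattle-yak and at 17.5, 12.4 and 16.2 FPKM in yak. Its groups overlapped, and the log2 fold change was 0.20 (95% interval -0.29 to 0.69), with a negative sign under median-of-ratios scaling (-0.38) and without cattle-yak replicate 2 (-0.01). ACVRL1, a receptor of endothelial cells, ranged from 11.2 to 16.5 FPKM against 4.97 to 6.16 FPKM (log2 fold change 1.14, adjusted p = 2.7e-04), and was not called with median-of-ratios scaling, at 0.59.

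BMPR1A and ACVR1B were higher in each cattle-yak library than in any yak library, with log2 fold changes of 0.76 each that stayed under the fold threshold. Bmpr1b ranged from 1.75 to 2.28 FPKM in cattle-yak and from 1.58 to 3.56 FPKM in yak, so the groups overlapped. ACVR1C reached at most 0.283 FPKM. Within each library TGFBR1 made up 29.3%, 23.4% and 27.1% of the summed type I receptors in cattle-yak and 13.2%, 15.0% and 12.1% in yak. ACVR1 made up 20.0%, 29.2% and 24.3% in cattle-yak and 39.8%, 37.1% and 37.8% in yak. Neither proportion overlapped between groups, and those of BMPR1A and ACVR1B did.

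All 4 type II receptor genes were called higher in cattle-yak, beside 33.4% of all genes tested. TGFBR2, which binds TGF-beta, stood at 25.5, 27.9 and 24.1 FPKM in cattle-yak and at 9.38, 8.39 and 8.82 FPKM in yak. The groups did not overlap, and the log2 fold change was 1.44 (SE 0.11, adjusted p = 6.9e-06). ACVR2A, an activin receptor, stood at 15.4, 13.8 and 11.5 FPKM in cattle-yak and at 3.32, 3.29 and 3.69 FPKM in yak. It had the largest log2 fold change of the 4, at 1.71 (SE 0.15, adjusted p = 1.1e-05), and was the only one of them still called with median-of-ratios scaling, at 1.17. With that scaling TGFBR2 (0.87), ACVR2B (0.57) and Bmpr2 (0.46) were not called. ACVR2B and Bmpr2, the BMP type II receptor, lay near the threshold at 1.09 and 1.01. ACVR2B fell to 0.91 without yak replicate 2. Bmpr2 fell to 0.96 without cattle-yak replicate 1, to 0.99 without yak replicate 1 and to 0.96 without yak replicate 2. Of the summed type II receptors TGFBR2 made up 40.8% to 44.2% in cattle-yak against 38.2% to 43.0%, which overlapped, whereas ACVR2A made up 20.3% to 24.6% against 14.7% to 16.9%. The share of Bmpr2 went the other way, at 18.2% to 20.8% in cattle-yak against 23.8% to 26.4% in yak, also without overlap.

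TGFBR3, or betaglycan, presents TGF-beta to its receptors and serves as a co-receptor of inhibin. It stood at 26.3, 30.3 and 30.6 FPKM in cattle-yak and at 23.5, 30.9 and 19.9 FPKM in yak. It ranked 3 among the 54 genes in both groups, the groups overlapped, and the log2 fold change was 0.24 (95% interval -0.13 to 0.62), or -0.35 with median-of-ratios scaling.

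**Figure D3:**
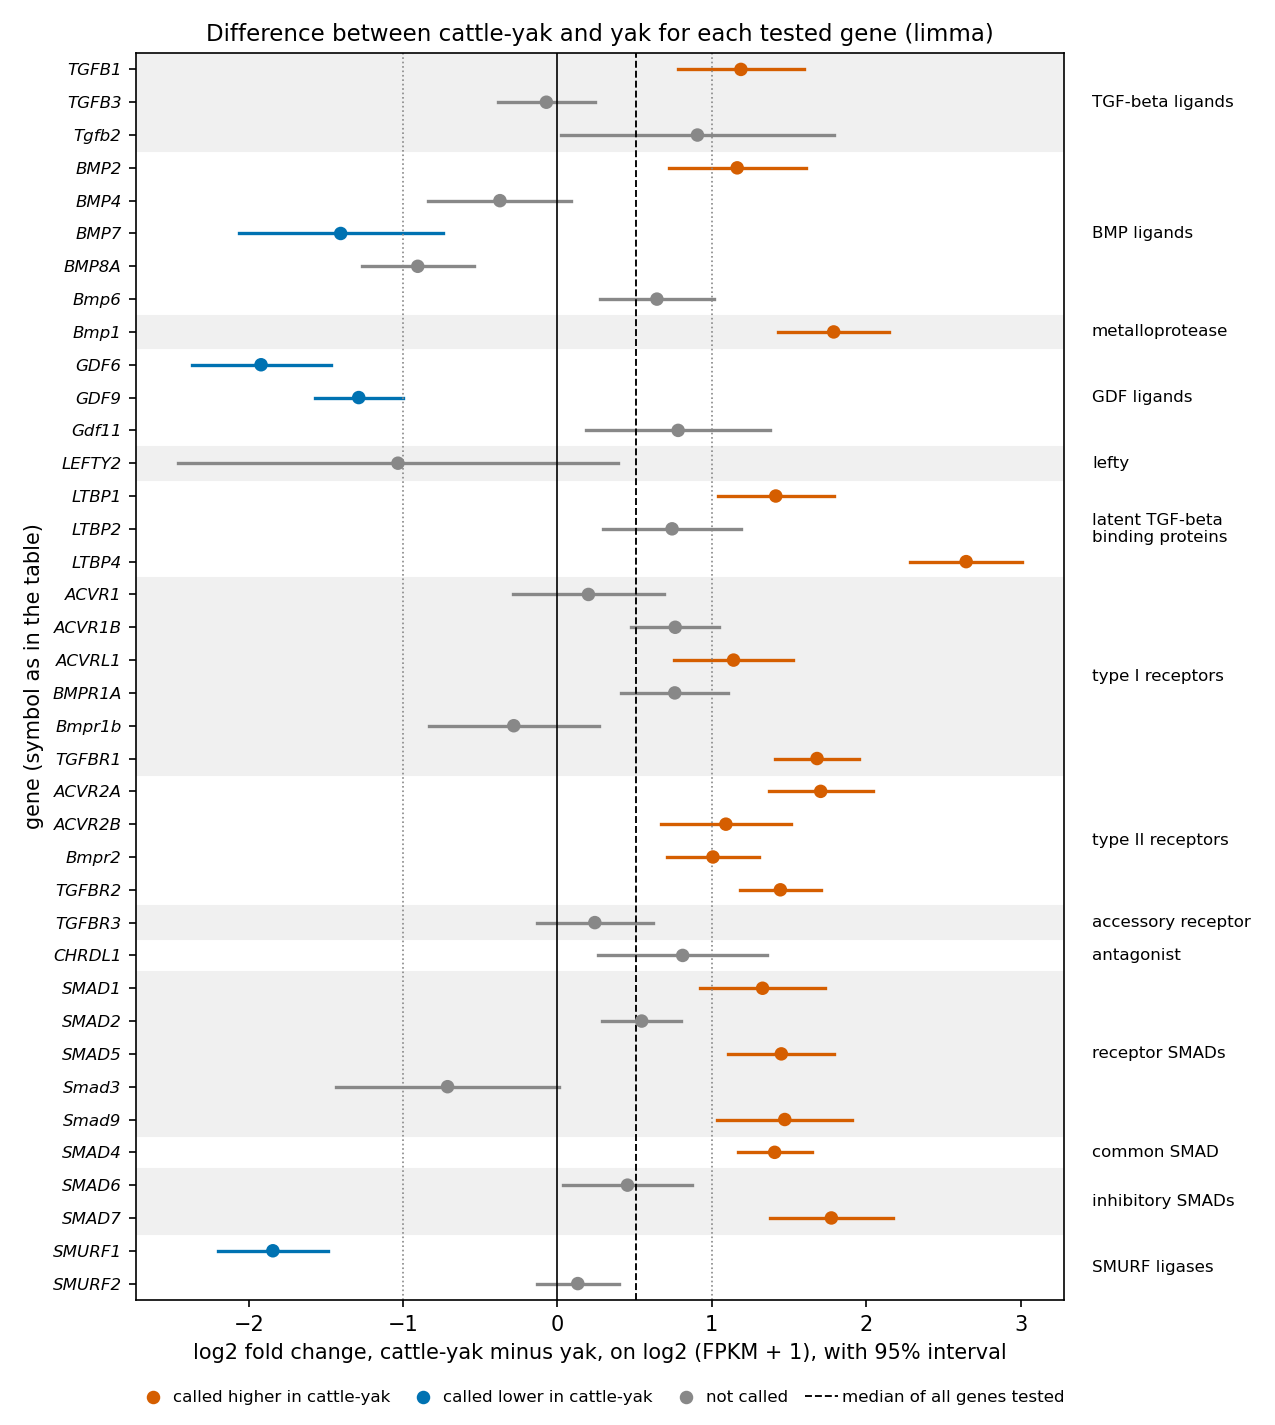
Log2 fold change, cattle-yak minus yak, of the 38 tested members on log2 (FPKM + 1), with 95% intervals from limma, dotted lines at the fold threshold of 1 in either direction and a dashed line at the median of all genes tested, 0.51. The 16 genes called higher lie between 1.01 and 2.65, and the 4 called lower between -1.92 and -1.29.

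On the deposited scale the receptor SMADs of the BMP branch were called higher in cattle-yak, and those of the TGF-beta and activin branch were not called. SMAD5, of the BMP branch, stood at 17.5, 19.9 and 17.6 FPKM in cattle-yak and at 6.10, 5.001 and 7.24 FPKM in yak. The log2 fold change was 1.45 (SE 0.15, adjusted p = 3.3e-05), with no overlap. Smad9 stood at 9.74, 11.2 and 10.2 FPKM in cattle-yak and at 3.01, 2.26 and 4.26 FPKM in yak. It had the largest log2 fold change of the role, at 1.47 (SE 0.19, adjusted p = 1.3e-04). SMAD1 ranged from 9.56 to 12.2 FPKM against 3.01 to 4.79 FPKM (log2 fold change 1.33). With median-of-ratios scaling the 3 genes stood at 0.80 to 0.95 and were not called.

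Smad3, of the TGF-beta branch, was the most abundant receptor SMAD over the 6 libraries and in yak, whereas SMAD2 had the highest mean in cattle-yak. Smad3 stood at 19.6, 16.01 and 15.2 FPKM in cattle-yak and at 15.7, 35.3 and 40.2 FPKM in yak. Yak replicate 1 lay among the cattle-yak, and the other 2 yak libraries lay above them. The log2 fold change of -0.71 was not called (adjusted p = 0.0629), and it was called lower without yak replicate 1, at -1.12, and with median-of-ratios scaling, at -1.30. SMAD2 ranged from 20.4 to 23.2 FPKM in cattle-yak and from 13.3 to 15.1 FPKM in yak, with a log2 fold change of 0.55 that was -0.04 with median-of-ratios scaling. Within each library SMAD1, SMAD5 and Smad9 together made up 47.6%, 53.9% and 51.1% of the summed receptor SMADs in cattle-yak and 31.1%, 17.5% and 21.7% in yak. The groups did not overlap. The difference between the group means, 50.9% ± 3.17 and 23.4% ± 7.01 (SD, n = 3 each), was 27.4 points.

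SMAD4, the common partner of the receptor SMADs, stood at 35.3, 37.2 and 34.1 FPKM in cattle-yak and at 13.8, 12.1 and 12.5 FPKM in yak. It was the second most abundant member in cattle-yak, its groups lay far apart, and the log2 fold change was 1.41 (SE 0.10, adjusted p = 5.1e-06), or 0.82 with median-of-ratios scaling. SMAD7, an inhibitory SMAD that recruits SMURF ligases to receptors and is itself induced by the pathway, stood at 8.43, 9.35 and 9.16 FPKM in cattle-yak and at 2.18, 1.34 and 2.34 FPKM in yak. All cattle-yak libraries lay above the yak, with a log2 fold change of 1.77 (SE 0.17, adjusted p = 2.4e-05). SMAD6, which inhibits mainly the BMP branch, ranged from 1.11 to 1.43 FPKM in cattle-yak and from 0.415 to 0.999 FPKM in yak, and its log2 fold change of 0.45 (adjusted p = 0.0453) was under the fold threshold. This difference was 0.91, without a call, with a pseudocount of 0.1. With voom on the recovered fragments it was 1.01 and was called higher.

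The SMURF ligases, which mark SMADs and receptors for degradation, differed from each other. SMURF1 stood at 10.98, 8.87 and 8.54 FPKM in cattle-yak and at 40.6, 39.4 and 29.996 FPKM in yak. Each yak library lay above each cattle-yak library, the mean was 3.88 times as high in yak, and the log2 fold change was -1.84 (SE 0.15, adjusted p = 9.9e-06). SMURF1 was the most abundant of the 54 genes in yak and ranked 19 in cattle-yak. SMURF2 stood at 27.1, 23.7 and 23.5 FPKM in cattle-yak and at 23.5, 23.96 and 20.2 FPKM in yak. Its groups overlapped, and the log2 fold change was 0.13 (95% interval -0.14 to 0.40), or -0.46 with median-of-ratios scaling.

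SMURF1 made up 28.8%, 27.3% and 26.6% of the sum of SMURF1 and SMURF2 in cattle-yak and 63.4%, 62.2% and 59.8% in yak. SMURF2 was thus the more abundant of the pair in every cattle-yak library and SMURF1 in every yak library. A short second gene with the symbol smurf1, of 204 bases, stood at 0.414, 0.439 and 0.423 FPKM in cattle-yak and at 0.746, 0.748 and 0 FPKM in yak. These values came from at most 2 fragments in a library, and whether they belong to SMURF1 is uncertain.

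**Figure D4:**
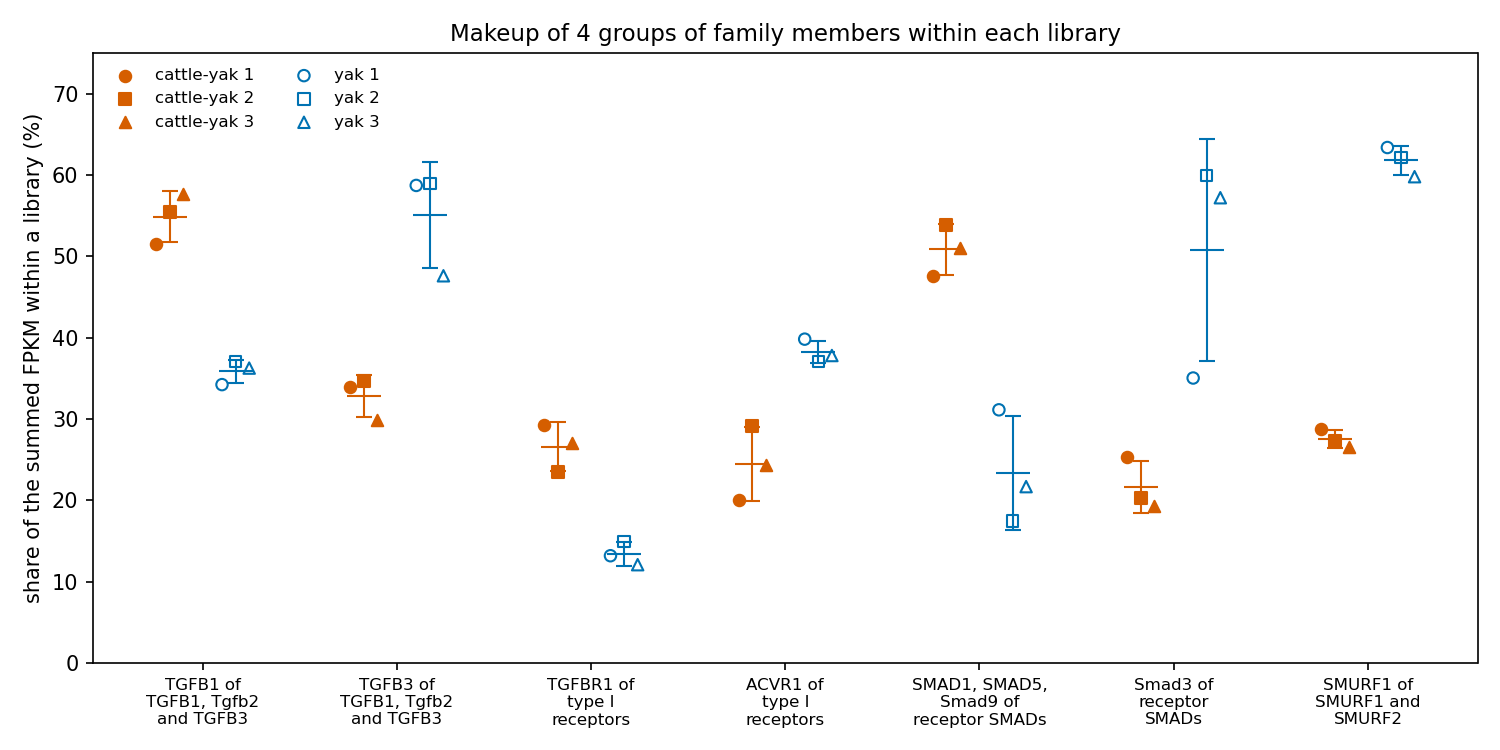
Share of the summed FPKM, in percent, that 7 genes or gene groups made up of their role within each library, with points for the libraries and a bar for the mean ± SD of 3. TGFB1, TGFBR1 and the BMP branch SMADs take a larger share in cattle-yak, and TGFB3, ACVR1, Smad3 and SMURF1 a larger share in yak, without overlap in any of the 7. These 7 were chosen after the values were seen, and other shares, such as those of SMAD2, TGFBR2 and BMPR1A, overlapped.

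Of 42 other genes of the pathway 37 were tested, and 23 were called higher and 4 lower, with a median log2 fold change of 1.16. These were 62.2% and 10.8% of the 37, beside the 33.4% and 20.8% of all genes tested. With median-of-ratios scaling 10 were called higher and 5 lower, with a median of 0.63, beside 2655 and 4173 of all 15042 genes tested. With Sertoli centring the median was -1.17. Of the 37, 1 was tested only through its level in cattle-yak and 1 only through its level in yak. The 4 ligands of this list were all called higher. INHA, the inhibin alpha subunit made by Sertoli cells, stood at 744.4, 920.4 and 865.3 FPKM in cattle-yak and at 150.1, 96.8 and 118.5 FPKM in yak. Its log2 fold change was 2.80 (SE 0.16, adjusted p = 1.5e-06), above that of any tested member. The activin subunits INHBA and INHBB and the Sertoli hormone AMH followed at 1.80, 1.69 and 1.23, and AMH was not called with median-of-ratios scaling, at 0.63. Among 5 tested receptors and co-receptors ENG, or endoglin (1.16), and Rgma, a BMP co-receptor (2.27), were called higher and 3 were not called, while ENG lost the call with median-of-ratios scaling (0.58).

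Of 8 tested antagonists and matrix binders outside the 54 genes 7 were called higher, among them BGN (2.49), FSTL3 (2.39) and DCN (2.44), the last of which is also a stromal marker above. These 3 kept the call with median-of-ratios scaling and the other 4 did not. BMPER, a secreted modulator of BMP, was called lower, with 0 FPKM in cattle-yak replicate 1, at most 0.217 FPKM in the other cattle-yak and 1.30 to 2.03 FPKM in yak, and it was tested only through its level in yak. Of 12 nuclear partners and adaptors 5 were called higher, including TGIF1 (1.79), ZFYVE9 (1.55) and the co-repressors SKIL (1.54) and SKI (1.31). TGIF1 alone of the 5 kept the call with median-of-ratios scaling, where ZFYVE9 stood at 0.96, SKIL at 0.99 and SKI at 0.74. PPM1A, a phosphatase that acts on receptor SMADs, was called lower, at 10.4, 10.2 and 10.9 FPKM in cattle-yak against 68.5, 44.5 and 68.0 FPKM in yak. Its log2 fold change was -2.38 (SE 0.17, adjusted p = 4.3e-06). USP15, a deubiquitinase, was called lower at -1.03 and lost the call without cattle-yak replicate 3 (-0.94) or yak replicate 3 (-0.96).

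Known target genes did not move in 1 direction. Of 8 tested, 5 were called higher, among them ID4 (2.72), CCN2 (1.93), TGFBI (1.35) and ID2 (1.14), Atoh8 was called lower (-1.73), and Id1 and ID3 were not called. With median-of-ratios scaling TGFBI (0.84) and ID2 (0.58) were not called. Id1, a direct BMP target, stood at 3.20, 4.57 and 2.09 FPKM in cattle-yak and at 3.54, 4.60 and 3.65 FPKM in yak. Its groups overlapped, with a log2 fold change of -0.24 (95% interval -0.76 to 0.29). ID4 is also counted among the spermatogonial markers.

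The table's own annotation placed 94 genes in the KEGG TGF-beta signaling pathway, 39 of which were members. Of the 77 tested, 36 were called higher, 5 lower and 36 were not called, with a median of 0.83. These calls were 46.8% and 6.5% of the 77, beside the 33.4% and 20.8% of all genes tested. Of the 77, 3 were tested only through their level in yak. With median-of-ratios scaling 18 were called higher and 8 lower, beside 2655 and 4173 of all 15042 genes tested. The median was then 0.24, and with Sertoli centring it was -1.50. The 55 genes of the pathway that were not members included 47 tested ones, of which 23 were called higher and 2 lower, or 15 and 3 with median-of-ratios scaling. As deposited these were 48.9% and 4.3% of the 47, beside the same 33.4% and 20.8% of all genes tested.

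**Figure D5:**
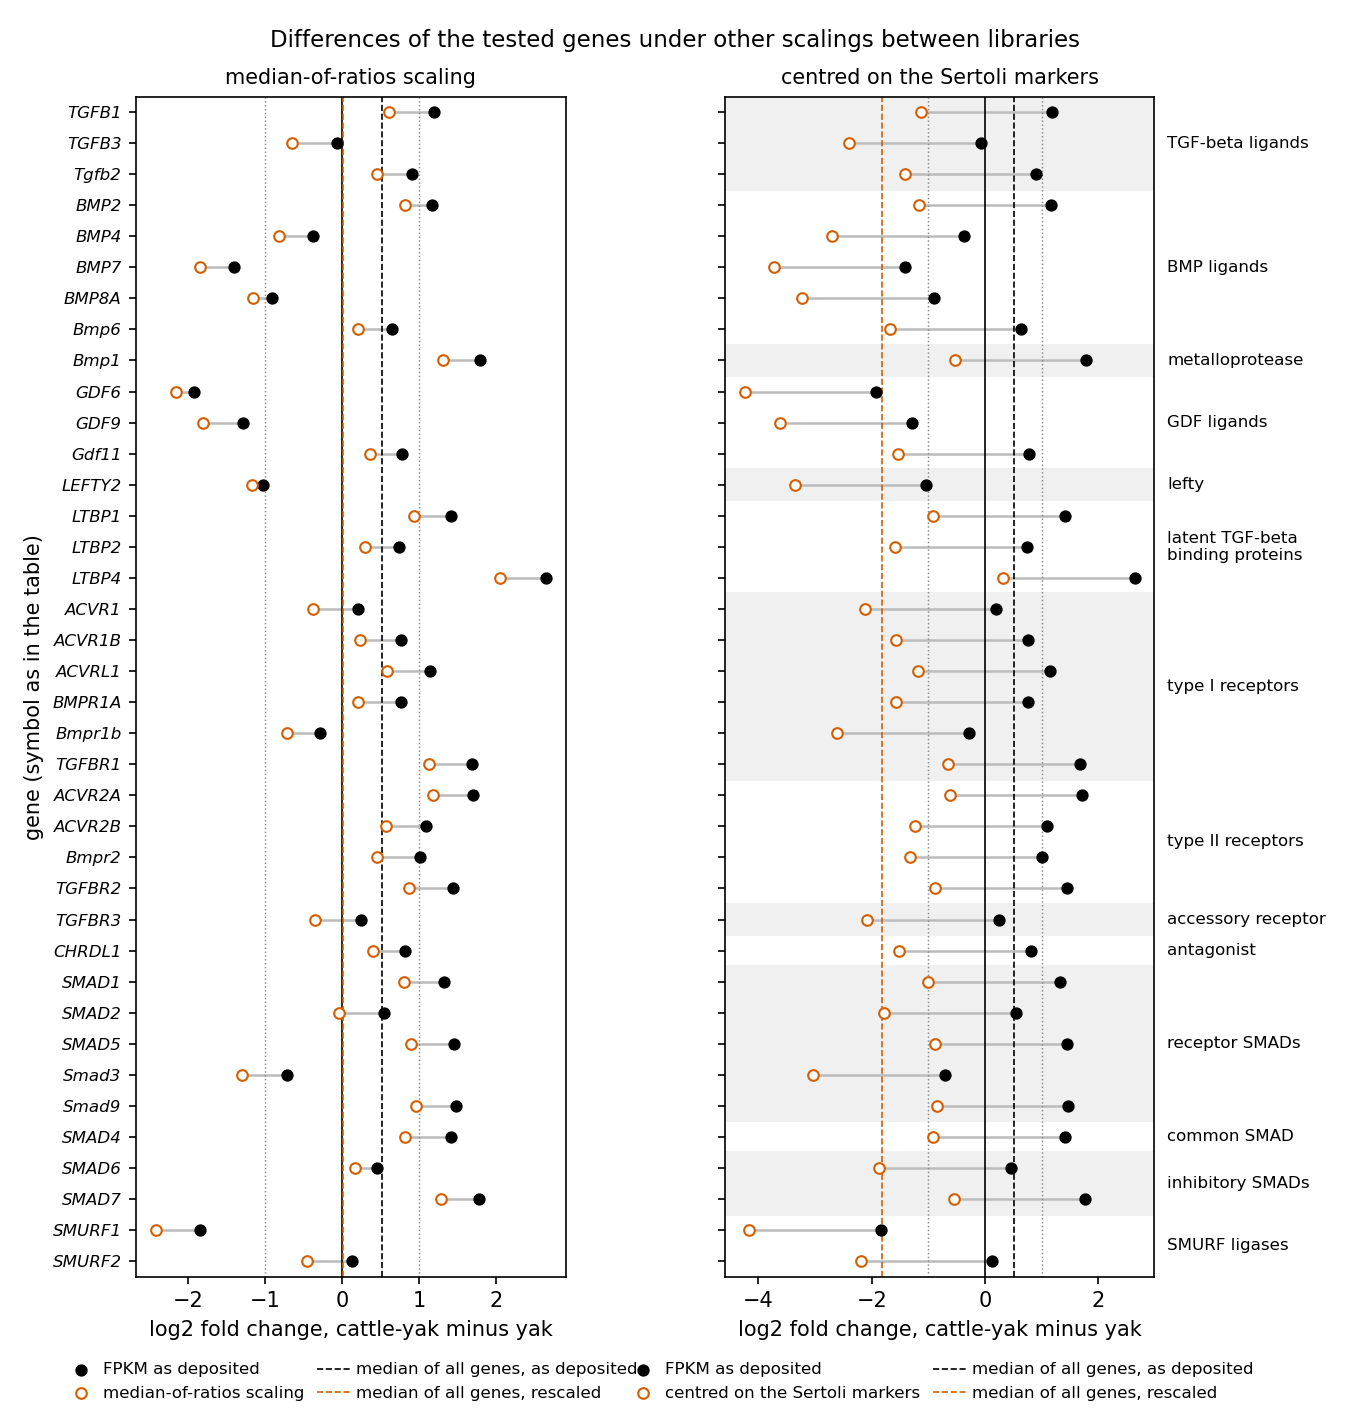
Log2 fold change of the 38 tested members as deposited (black) and after rescaling (open), with median-of-ratios scaling at the left and Sertoli centring at the right, and dashed lines at the median of all genes tested. Every member moves left with the all-gene median, which goes from 0.51 to 0.01 at the left and to -1.81 at the right, and the shift at the right is the same for every gene.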

How the data were processed

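Testis RNA of 3 cattle-yak and 3 yak was sequenced as stranded poly(A) libraries, 1 per animal. Per the study's methods, the authors trimmed reads with Trimmomatic and mapped both groups to LU_Bosgru_v3.0 with HISAT2. FPKM values were deposited by the authors without scaling between libraries, and the submitters' processing notes name Cufflinks. The study's methods also name HTSeq-count, for read counts. Since the values come to whole fragments, which tool's counts underlie them is uncertain. Tool versions are not given in the sources used here.

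Whole fragments and gene lengths were recovered from the steps between FPKM values for the 17973 genes that had 2 or more values above 0, within 0.001 fragments of a whole number. The 15042 genes with a mean of at least 0.5 FPKM were fitted on log2 (FPKM + 1) with limma 3.58.1 (lmFit, eBayes with a variance trend) in R 4.3.3, without covariates, and p-values were adjusted over all of them. Recovery and fit were tested on simulated data. Marker sums were compared with exact permutation tests, two-sided. Python 3.11.15, numpy 2.4.6, pandas 2.3.3, scipy 1.17.1 and matplotlib 3.10.9 were used.

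Members, gene lists and alternatives were chosen with earlier results of these data known. Values in every library are given, in each role, for the member with the highest mean FPKM, the called members farthest from 0 in each direction, every member called lower and every symbol on more than 1 gene, and other members are given by range or log2 fold change. TGFB3, Tgfb2, BMP8A, Gdf11, SMAD5, Chrd and the named genes outside the 54 were chosen after their values were seen. Alternatives were a pseudocount of 0.1, a minimum of 5 FPKM or none, scaling by TPM, median of ratios or Sertoli markers, no variance trend, no fold threshold and leaving out each library. Voom in limma on the recovered fragments was planned for the members' calls and chosen for other results after seeing the data. Gene positions, sequences and splicing were not analysed here. The values of 1 listed target gene are not reported here.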

Additional observations from a re-analysis of the deposited data

How the results depend on the processing

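Counts of calls moved most with the scaling between libraries. With median-of-ratios scaling 2655 genes, 5 members and 10 other pathway genes were called higher, and the median of the members was 0.33. With Sertoli centring, 27 genes were called higher and 11565 lower, 0 members higher and 27 lower, and 0 other pathway genes higher and 22 lower, and the median of the members was -1.55. By construction this centring shifted every gene by the same amount, -2.33 on the log2 scale. That amount reflects the mean difference of the 11 Sertoli genes it used, out of the 13 listed. Without the fold threshold 7916 genes were called higher. With a minimum of 5 FPKM, which leaves fewer genes to test, 2 members and 2 other pathway genes were called lower, and the members' median was 1.12. That median was 1.02 with a pseudocount of 0.1, 0.88 with TPM and 1.06 with voom. Without a filter it was 0.30, taken over all 54 members and not over the 38. The cause of these shifts was not tested. The fold threshold does not enter a median.

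With median-of-ratios scaling the sign turned for ACVR1 (-0.38), TGFBR3 (-0.35), SMURF2 (-0.46) and SMAD2 (-0.040). With Sertoli centring it turned for the ligands TGFB1 (-1.14), Tgfb2 (-1.42), BMP2 (-1.16), Bmp6 (-1.68) and Gdf11 (-1.54), for Bmp1 (-0.54), LTBP1 (-0.91), LTBP2 (-1.58) and CHRDL1 (-1.52). Receptors turned as well, namely ACVR1 (-2.13), ACVR1B (-1.56), ACVRL1 (-1.19), BMPR1A (-1.57), TGFBR1 (-0.64), ACVR2A (-0.62), ACVR2B (-1.24), Bmpr2 (-1.32), TGFBR2 (-0.88) and TGFBR3 (-2.08). So did SMAD1 (-0.998), SMAD2 (-1.78), SMAD5 (-0.88), Smad9 (-0.85), SMAD4 (-0.92), SMAD6 (-1.87), SMAD7 (-0.55) and SMURF2 (-2.19). Marker medians turned for Leydig (-0.42), myoid (-0.32), endothelial (-1.16), macrophage (-1.16) and spermatogonial genes (-0.43). The Sertoli median of -0.033 was set near 0 by the centring itself and carries no information.

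Leaving out 1 library at a time gave 14 to 17 members called higher and 4 to 5 lower, and 22 to 23 other pathway genes called higher and 3 to 4 lower. The members' median ranged from 0.69 to 0.84, the value for ACVR1 from -0.0098 to 0.38 and the median of the spermatocyte genes from -0.34 to 0.13. Of the 38 members, 38 kept their direction and their side of the threshold without a variance trend and 38 without a filter, 36 with TPM, 35 with a pseudocount of 0.1 and 32 with voom, which called the other 6 members as well. All 24 members that reached 5 FPKM kept theirs with that minimum. The members that voom called in addition were BMP8A, lower, and Tgfb2, Gdf11, LTBP2, CHRDL1 and SMAD6, higher. No paired analysis was possible because the labels give the groups no shared replicate numbers, and the numbers 1 to 3 used here only name the libraries. With 3 animals per group, overlapping members may still differ within the 95% intervals given above, and members with few fragments are limited by depth.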
